A study of Caenorhabditis elegans with 4 samples.

Results

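The genes described here encode proteins with a SET domain, the catalytic fold of most enzymes that methylate lysines of histones. They were all genes in the count table whose symbol is set- followed by a number, plus met-1, met-2, mes-2, mes-4, lin-59 and blmp-1. The rule found 37 genes of the 20392 in the table. Of these, 35 passed the filter on low counts and were tested among 15008 genes, and the 2 that did not pass, set-8 and set-13, are given by their counts. The rule uses names and no measured value.

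SET domain enzymes transfer methyl groups from S-adenosylmethionine to lysines of histone tails, and the modified lysine sets how the mark is read. Methylation of histone H3 at lysine 4 (H3K4) or lysine 36 (H3K36) is found on transcribed genes, while methylation at lysine 9 (H3K9) or lysine 27 (H3K27) is found on repressed chromatin. In the nematode Caenorhabditis elegans, MET-1 places H3K36 methylation during transcription. MES-4 maintains the mark on genes that were expressed in the germline of the parents, and its loss makes the offspring sterile. MES-2, the H3K27 enzyme, is needed in the germline together with MES-4, and the marks of MES-2 and MES-4 occupy different regions of the genome.

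The study measured RNA in first-stage (L1) larvae that had hatched without food and were then fed again. The met-1 mes-4(RNAi) larvae were of strain GW1183, with the genotype met-1-/-, and were raised on bacteria for RNAi against mes-4. The wild type larvae were of strain N2 and were raised on bacteria with L4440, the RNAi plasmid without an insert. Each group had 2 libraries, which the series text calls independent biological replicates. The labels do not name the met-1 allele, and the mutation and the RNAi occur only together in these libraries, so their contributions cannot be told apart. The question here was whether other SET domain genes differed when both H3K36 methyltransferase genes were targeted.

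Total counts were 29081819 and 35106597 in the met-1 mes-4(RNAi) libraries, and 33272359 and 32593317 in the wild type libraries. Levels are given in CPM, the usual depth-scaled count, after TMM scaling, and levels of different genes are compared only as CPM per kb of gene model. Markers of intestine, body wall muscle, pharynx, neurons and hypodermis were present in every library. Of the 5 sperm genes, msp-19 and msp-142 were at 0 counts in all 4 libraries. The sum of the 5 was low and higher in both met-1 mes-4(RNAi) libraries, as given below. The 10 germ cell markers summed to 181.6 and 202.3 CPM in the met-1 mes-4(RNAi) libraries, against 194.8 and 208.8 CPM in wild type libraries. The 10 markers of oocytes and early embryos summed to 70.8 and 37.8 CPM in the met-1 mes-4(RNAi) libraries, against 129.6 and 80.3 CPM in wild type libraries. All 10 had a negative log2 fold change, with a median of -1.05, against 48.5% of all genes tested with a negative one. In RNA from whole larvae, fewer cells of a type and less RNA per cell cannot be told apart.

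In median size, the SET domain genes differed between the groups by about as much as genes in general. A larger share of the members than of all genes was lower at an unadjusted edgeR p under 0.05, as given below. The members with the lowest log2 fold changes were set-31, set-17, the targeted gene met-1, mes-2, set-23 and met-2. With edgeR's quasi-likelihood test and Benjamini-Hochberg adjustment over all genes, 0 of the 35 members passed an adjusted p of 0.05, as did 0% of all genes tested. DESeq2, the second count test, called 2 members, met-1 and set-31, both lower, and no member higher. That is 5.71% of the members lower, against 1.92% of all genes tested lower and 2.45% higher, or 4.36% in either direction. "Fell" is used below only for DESeq2 calls. At an unadjusted edgeR p under 0.05, 7 members were lower (20%) and 2 higher (5.71%), against 6.82% and 7.74% of all genes. In either direction it was 14.6% of all genes. The 7 were set-31, set-17, met-1, mes-2, met-2, mes-4 and set-29, and the 2 were set-18 and set-12. Leaving met-1 and mes-4 aside, 5 of 33 were lower, which is 15.2%. Unless stated, the tests had no term for the replicate number, which the labels do not call a batch. With such a term (a replicate block), edgeR called 11 of the 35 members and 3047 of the 15008 genes tested, as given at the end.

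The libraries of the groups did not overlap for 12 members with the met-1 mes-4(RNAi) libraries below and 7 with them above. That is 34.3% of the members lower, against 22.2% of all genes tested, while 22.7% of all genes were higher without overlap and 44.9% stood apart in either direction. Without met-1 and mes-4, 10 of 33 members were lower (30.3%) and 7 higher (21.2%). For 16 members the groups overlapped. The median log2 fold change of the 35 members was -0.05, and -0.04 without met-1 and mes-4, against 0.01 for all genes tested. It lay between -0.12 and 0.01 when 1 library was left out. The median size of the fold change, regardless of sign, was 0.25 (log2) for the members and 0.23 for all genes. At least 2-fold differences were seen for 2 members, set-31 and set-12, and for 8.17% of all genes.

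**Figure D1:**
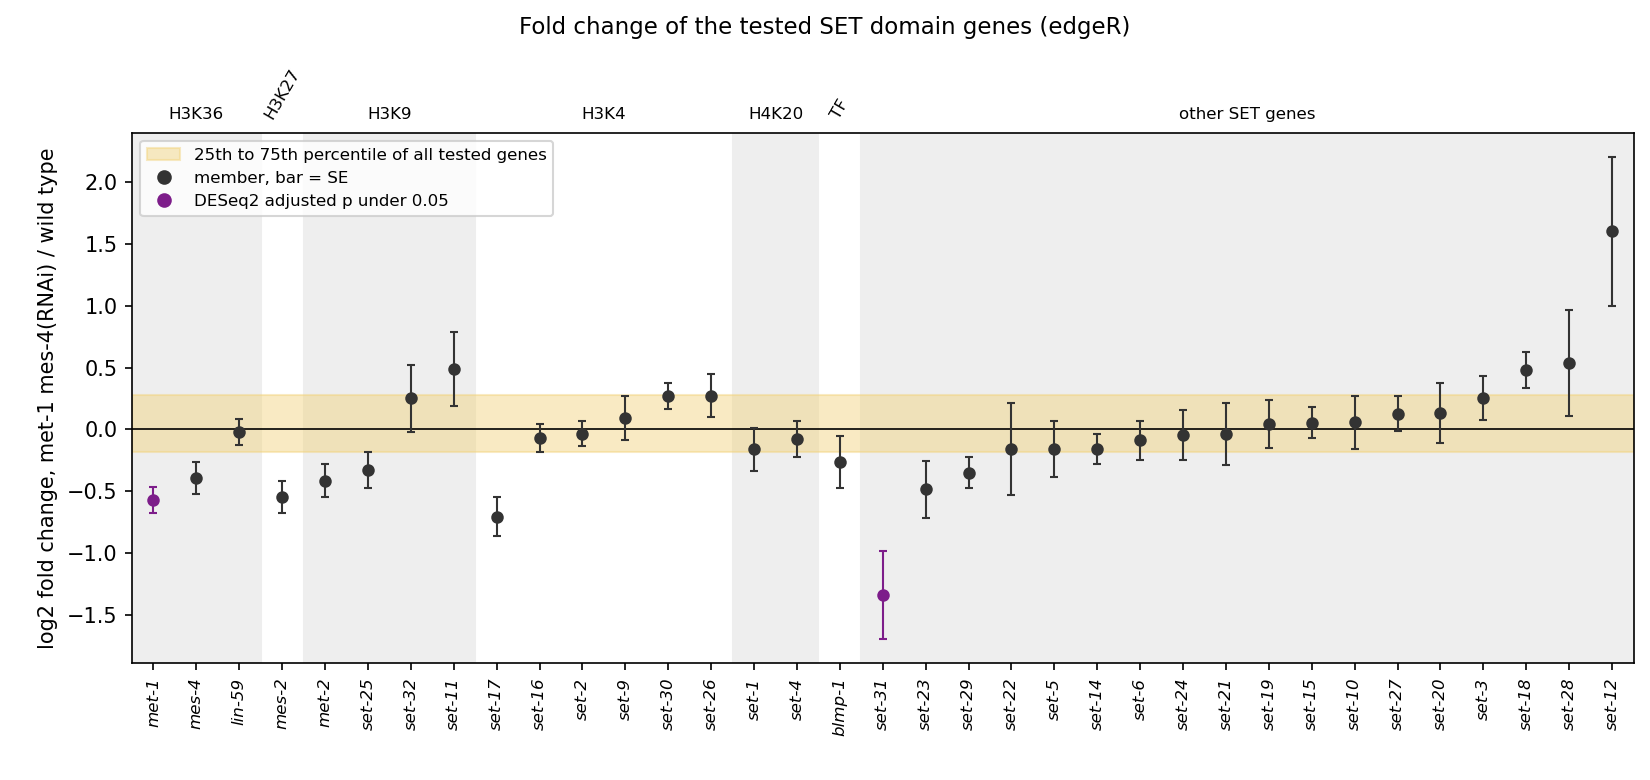
Log2 fold change of the 35 tested SET domain genes, met-1 mes-4(RNAi) over wild type (edgeR, 2 libraries a group), ordered by histone residue and then by fold change; bars are standard errors, TF is the transcription factor gene blmp-1. The band spans the 25th to 75th percentile of all 15008 tested genes (-0.19 to 0.28), and met-1 and set-31, in purple, are the 2 members called by DESeq2.

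Among the H3K36 methyltransferase genes both targeted transcripts were lower, and lin-59 was nearly level. The met-1 transcript (WBGene00016603, chromosome I), which encodes a SETD2-type enzyme, was at 114.9 and 111.4 CPM in the met-1 mes-4(RNAi) libraries, against 171.9 and 164.9 CPM in wild type libraries. The replicates lay close together and the groups were well apart. The difference of the means was -32.8%, a log2 fold change of -0.57 (SE 0.10), with an edgeR adjusted p of 0.111 and a DESeq2 adjusted p of 0.0039. The DESeq2 call ended when any 1 library was left out, with adjusted p of 0.316 and 0.433 without met-1 mes-4(RNAi) replicates 1 and 2, and 0.477 and 0.459 without wild type replicates 1 and 2. The log2 fold change stayed between -0.61 and -0.52 over the 12 alternatives.

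The mes-4 transcript (WBGene00003222, chromosome V), which encodes an NSD-type enzyme, was at 26.2 and 28.3 CPM in the met-1 mes-4(RNAi) libraries, against 34.3 and 37.4 CPM in wild type libraries. Both met-1 mes-4(RNAi) libraries lay below both wild type libraries. The difference of the means was -23.9%, a log2 fold change of -0.39 (SE 0.13), and neither test called it (edgeR adjusted p 0.267, DESeq2 adjusted p 0.337). A count per gene does not separate intact transcript from mutated transcript or from the double-stranded RNA fed to the larvae. The ASH1-type gene lin-59 (WBGene00003040, chromosome I) was at 211.9 and 200.1 CPM in the met-1 mes-4(RNAi) libraries, against 210.2 and 208.4 CPM in wild type libraries. The groups overlapped, and the log2 fold change was -0.02 (SE 0.11), with a sign that turned with the scaling.

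The SMYD-type gene set-18 (WBGene00044070, chromosome I) has also been linked to H3K36 dimethylation in C. elegans. It was at 119.4 and 95.1 CPM in the met-1 mes-4(RNAi) libraries, against 78.9 and 74.8 CPM in wild type libraries. Both met-1 mes-4(RNAi) libraries were above both wild type libraries, and replicate 1 stood highest. The log2 fold change was 0.48 (SE 0.15), positive in all 12 alternatives, from 0.31 to 0.63, and it passed neither test (edgeR adjusted p 0.246, DESeq2 adjusted p 0.166). Per kb, set-18 had the highest mean of the members over the 4 libraries, 52.9 CPM per kb. In the met-1 mes-4(RNAi) libraries set-18 was at 68.7 and 54.7 CPM per kb and set-16 at 47.3 and 44.0 CPM per kb. In the wild type libraries set-18 was at 45.4 and 43.0 CPM per kb, below set-16 at 47.4 and 48.5 CPM per kb.

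The H3K27 enzyme gene mes-2 (WBGene00003220, chromosome II), the counterpart of EZH2 and catalytic subunit of the Polycomb complex PRC2, was at 20.9 and 23.4 CPM in the met-1 mes-4(RNAi) libraries, against 31.9 and 32.9 CPM in wild type libraries. The difference of the means was -31.5%, close to that of met-1, and the groups did not overlap. The log2 fold change was -0.55 (SE 0.13), from -0.64 to -0.47 over the 12 alternatives, with an edgeR adjusted p of 0.168 and a DESeq2 adjusted p of 0.0843. The genes of its PRC2 partners stood on the other side of 0. The mes-6 transcript, for the counterpart of the human subunit EED, was at 57.9 and 61.5 CPM in the met-1 mes-4(RNAi) libraries, against 52.3 and 55.4 CPM in wild type libraries (log2 fold change 0.15, SE 0.11). The mes-3 transcript, for a subunit found in nematodes, was at 65.5 and 61.0 CPM in the met-1 mes-4(RNAi) libraries, against 60.3 and 57.4 CPM in wild type libraries (log2 fold change 0.10, SE 0.11). Neither passed a test, and the difference between mes-2 and its partners was not tested.

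The H3K9 genes were split, with the abundant members lower and the scarce members higher. The SETDB1-type gene met-2 (WBGene00019883, chromosome III), which makes mono- and dimethylated H3K9, was at 123.2 and 107.9 CPM in the met-1 mes-4(RNAi) libraries, against 164.4 and 143.7 CPM in wild type libraries. The groups did not overlap, and in each of them replicate 1 was the higher one. The means were 115.5 ± 10.8 CPM in the met-1 mes-4(RNAi) group and 154.1 ± 14.7 CPM in the wild type group (SD, n = 2 each), a log2 fold change of -0.42 (SE 0.13), with an edgeR adjusted p of 0.266 and a DESeq2 adjusted p of 0.210. For set-25 (WBGene00012802, chromosome III), whose product adds the third methyl group, levels were 36.6 and 42.5 CPM in the met-1 mes-4(RNAi) libraries, against 46.3 and 52.9 CPM in wild type libraries. These groups did not overlap either, and the log2 fold change was -0.33 (SE 0.14). Exons of set-25 overlap the gene unc-64 on the other strand, which was level between the groups (log2 fold change 0.01).

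The other H3K9 genes were scarce. The set-25 relative set-32 was at 2.08 and 2.41 CPM in the met-1 mes-4(RNAi) libraries, against 1.86 and 1.91 CPM in wild type libraries, a log2 fold change of 0.25 (SE 0.27), or 0.13 with replicate 2 of the met-1 mes-4(RNAi) group left out. The G9a-related gene set-11 was at 2.61 and 3.62 CPM in the met-1 mes-4(RNAi) libraries, against 1.98 and 2.46 CPM in wild type libraries, a log2 fold change of 0.49 (SE 0.30). For set-11 it was 0.22 with replicate 2 of the met-1 mes-4(RNAi) group left out and 0.71 with replicate 1 left out. In both genes every met-1 mes-4(RNAi) library was above every wild type library, and neither gene passed a test.

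**Figure D2:**
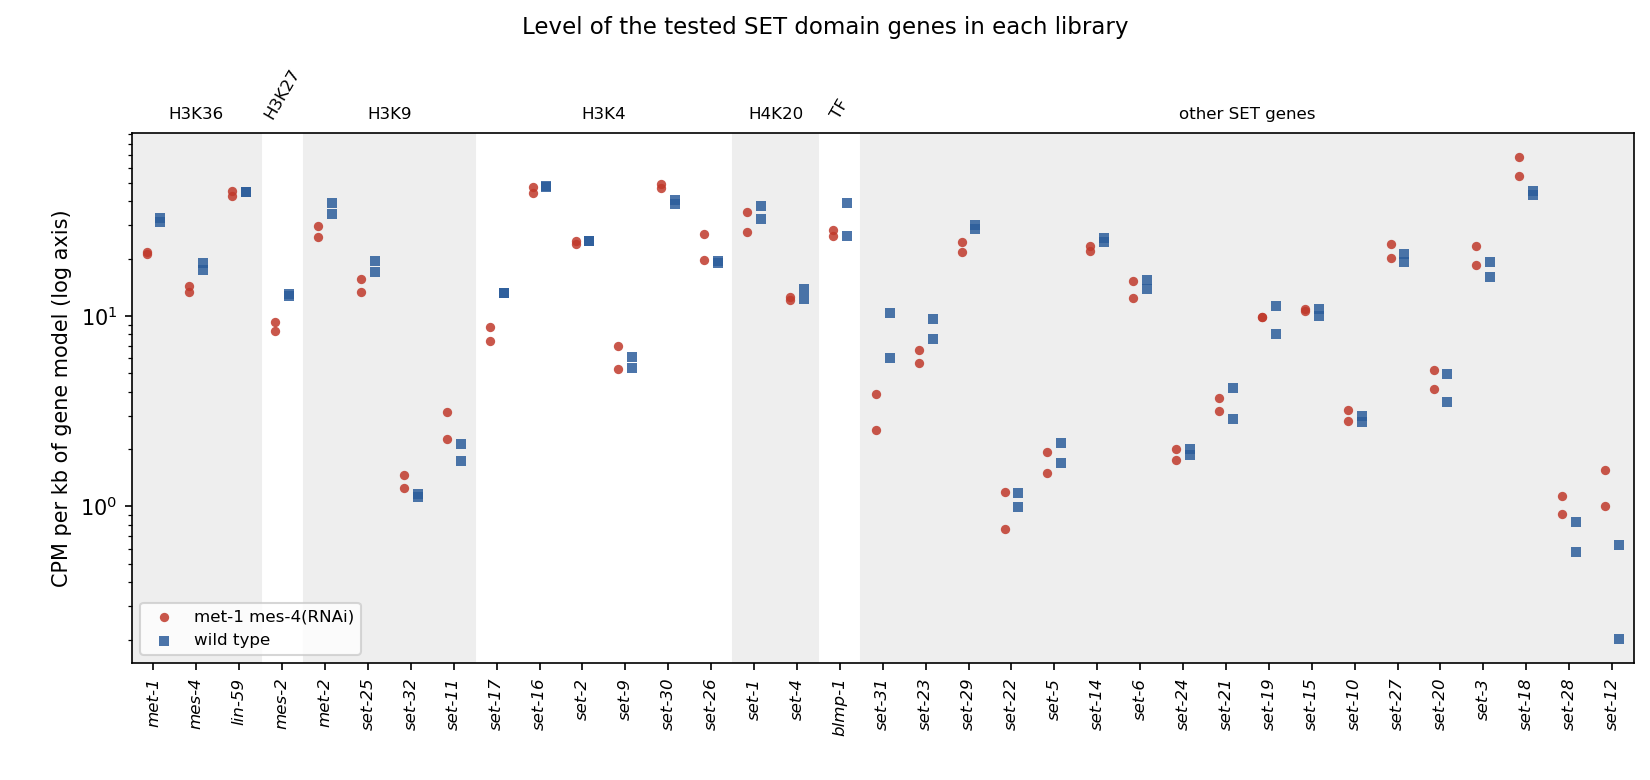
Level of each of the 35 tested SET domain genes in CPM per kb of gene model (log axis), with 1 point for each library, met-1 mes-4(RNAi) as red circles and wild type as blue squares. Levels spanned a mean of 0.847 CPM per kb for set-12 to 52.9 for set-18. The red and blue points stand apart for 12 members with red lower and 7 with red higher. The lower ones include met-1, mes-4, mes-2, met-2, set-17 and set-31, and the higher ones include set-18 and set-30.

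The H3K4 genes were level for the main enzymes and lower for set-17. The SET1-type gene set-2 was at 133.3 and 129.1 CPM in the met-1 mes-4(RNAi) libraries, against 134.1 and 134.5 CPM in wild type libraries. The MLL-type gene set-16 was at 375.7 and 349.5 CPM in the met-1 mes-4(RNAi) libraries, against 376.3 and 384.6 CPM in wild type libraries. Their log2 fold changes were -0.03 (SE 0.10) and -0.07 (SE 0.11), and that of set-2 turned sign with library size scaling. Both count among the members without overlap, though the nearest libraries of the groups differed by under 1 CPM.

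The gene set-17 (WBGene00011887, chromosome II), which encodes an H3K4 methyltransferase that acts in germ cells, was at 10.6 and 8.96 CPM in the met-1 mes-4(RNAi) libraries, against 16 and 15.9 CPM in wild type libraries. The wild type libraries were nearly equal and both met-1 mes-4(RNAi) libraries lay well below them. The difference of the means was -38.7%, a log2 fold change of -0.71 (SE 0.16), from -0.83 to -0.60 over the alternatives. It stayed short of both thresholds, with an edgeR adjusted p of 0.158 and a DESeq2 adjusted p of 0.0686. Of all genes tested, 3.83% had a lower log2 fold change.

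The SMYD-type gene set-30 was at 89.1 and 85.4 CPM in the met-1 mes-4(RNAi) libraries, against 70.7 and 74.1 CPM in wild type libraries. The replicates were close and the groups apart, with a log2 fold change of 0.27 (SE 0.11) and an edgeR adjusted p of 0.352. The genes set-9 and set-26 encode closely related proteins with a PHD finger and a SET domain that bind chromatin marked by H3K4 methylation. Their sequences are so alike that reads may have been divided between them. At set-26, levels were 135.9 and 98.6 CPM in the met-1 mes-4(RNAi) libraries, against 97.8 and 96.1 CPM in wild type libraries. Its log2 fold change of 0.27 (SE 0.18) rested on met-1 mes-4(RNAi) replicate 1 and was 0.02 without it. At set-9, levels were 38.9 and 29.6 CPM in the met-1 mes-4(RNAi) libraries, against 34.2 and 30.0 CPM in wild type libraries, with overlap.

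The H4K20 genes overlapped between the groups. The gene set-1, for the PR-SET7-type enzyme that adds the first methyl group to lysine 20 of histone H4, was at 46.3 and 36.2 CPM in the met-1 mes-4(RNAi) libraries, against 49.7 and 42.4 CPM in wild type libraries. The gene set-4, for the SUV4-20-type enzyme that adds further ones, was at 16.2 and 15.5 CPM in the met-1 mes-4(RNAi) libraries, against 15.6 and 17.7 CPM in wild type libraries. Log2 fold changes were -0.16 (SE 0.17) for set-1 and -0.08 (SE 0.14) for set-4. The value of set-1 was -0.35 with replicate 1 of the met-1 mes-4(RNAi) group left out and -0.00033 with replicate 2 left out. The gene blmp-1 encodes the counterpart of the transcription factor BLIMP-1, known for the timing of molting and skin development. It was at 64.8 and 69.2 CPM in the met-1 mes-4(RNAi) libraries, against 64.3 and 96.5 CPM in wild type libraries. Wild type replicate 2 stood far above the others, and the log2 fold change of -0.26 (SE 0.21) was 0.06 without that library.

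Among the 20 members with no role group, set-31 stood lowest and set-12 highest. The gene set-31 (WBGene00007615, chromosome V) was at 4.22 and 6.52 CPM in the met-1 mes-4(RNAi) libraries, against 9.98 and 17.3 CPM in wild type libraries. The groups did not overlap, and replicate 2 was the higher one in each. The difference of the means was -60.6%, a log2 fold change of -1.34 (SE 0.36), and 0.620% of all tested genes were lower still. It fell by DESeq2 (adjusted p = 0.0190) and was not called by edgeR (adjusted p = 0.1995). With replicate 1 of the met-1 mes-4(RNAi) group left out, the log2 fold change by DESeq2 was -1.07 and its adjusted p 0.394. With wild type replicate 2 left out they were -0.89 and 0.9998. The call held without either of the other libraries. Over the alternatives without a block the adjusted p ranged from 0.019 to 0.555, with negative fold changes throughout.

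The annotation places exons of dhs-22, a gene with a higher CPM in every library, on the strand opposite set-31. It was at 83.6 and 84.6 CPM in the met-1 mes-4(RNAi) libraries, against 103.6 and 102.1 CPM in wild type libraries, a log2 fold change of -0.29. The strand setting of the authors' counting is not given in the sources used here, so reads of dhs-22 and set-31 may not be fully separated. Whether any of the set-31 difference comes from dhs-22 was not tested.

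The gene set-29, with no role stated here, was at 27.1 and 30.4 CPM in the met-1 mes-4(RNAi) libraries, against 35.8 and 37.4 CPM in wild type libraries, a log2 fold change of -0.35 (SE 0.13). The gene set-23 was at 4.88 and 4.19 CPM in the met-1 mes-4(RNAi) libraries, against 7.10 and 5.58 CPM in wild type libraries, a log2 fold change of -0.48 (SE 0.23). The groups of set-14 also did not overlap, at a log2 fold change of -0.16. Of the remaining tested genes without a role group, set-3, set-5, set-6, set-10, set-15, set-19, set-20, set-21, set-22, set-24 and set-27 overlapped between the groups. Their log2 fold changes ran from -0.16 for set-22 to 0.26 for set-3. None of these genes passed either test.

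The scarcest members had more reads in both met-1 mes-4(RNAi) libraries than in either wild type library. The gene set-12 had 67 and 50 reads in met-1 mes-4(RNAi) libraries, against 30 and 9 reads in wild type libraries. It had the highest log2 fold change of the members, 1.604 (SE 0.60), with an edgeR adjusted p of 0.326, and wild type replicate 2 was the lowest. Leaving out 1 library moved it between 1.011 and 2.64. The gene set-28 had 25 and 23 reads in met-1 mes-4(RNAi) libraries, against 20 and 13 reads in wild type libraries (log2 fold change 0.54, SE 0.43). Of the untested genes, set-13 had 19 and 10 reads in met-1 mes-4(RNAi) libraries, against 7 and 5 reads in wild type libraries. For set-8 there were 2 and 1 reads in met-1 mes-4(RNAi) libraries and 0 in both wild type libraries, where a count of 0 allows up to 3 reads, or 0.0899 and 0.0957 CPM. These 4 genes, all with a mean under 1 CPM per kb, were grouped after their values were seen. Of all 6227 genes with a count at such a level, 28.7% were higher and 7.45% lower without overlap.

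**Figure D3:**
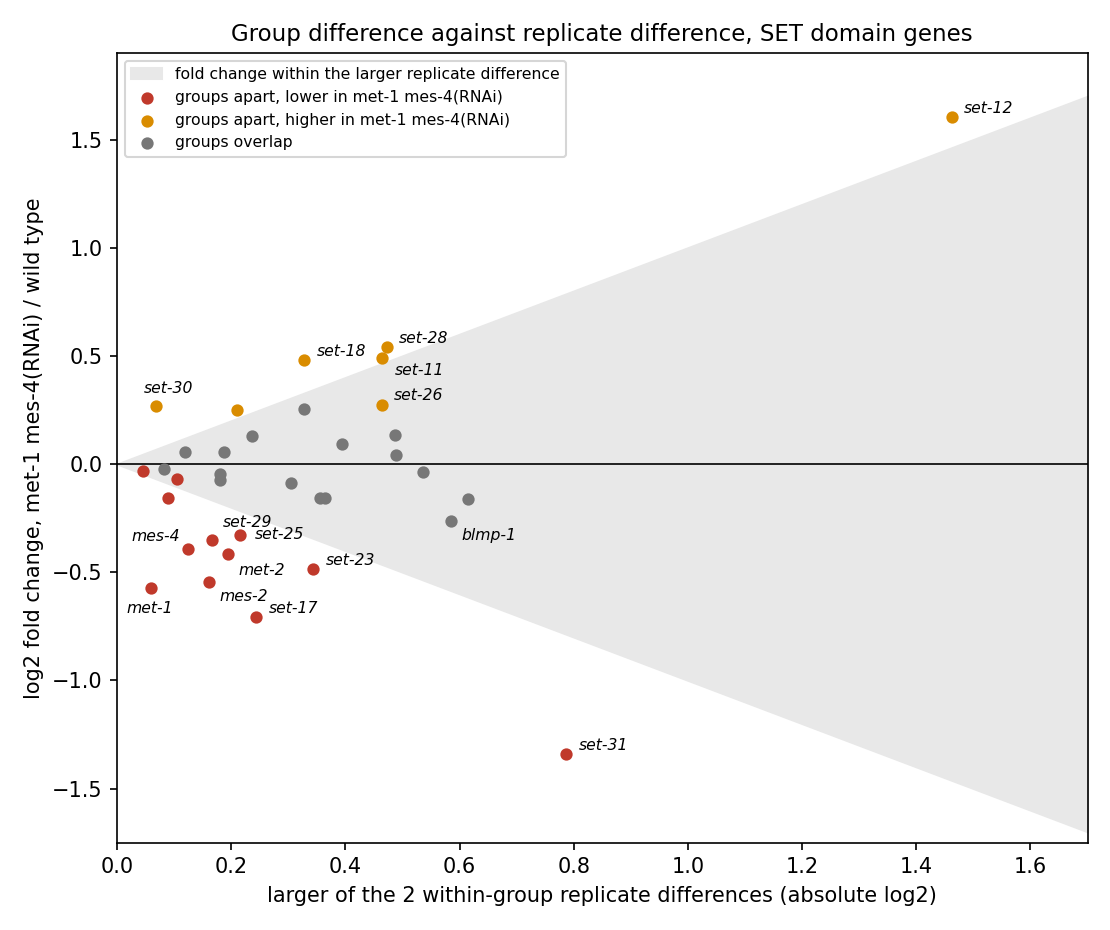
Log2 fold change of each tested SET domain gene (edgeR, vertical axis) against the larger of its 2 replicate differences, 1 in each group (absolute log2 CPM, horizontal axis). For 16 of the 35 members the fold change exceeded that replicate difference, 10 lower in met-1 mes-4(RNAi) and 6 higher, and these lie outside the grey wedge; red and orange mark groups that did not overlap, of which set-2, set-16 and set-26 lie inside it.

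The difference between the groups exceeded the larger of the replicate differences for 16 of the 35 members, 10 lower and 6 higher. The same held for 34.9% of all genes tested, 17.4% lower and 17.5% higher. The median of that larger replicate difference was 0.24 (log2) for the members and 0.34 for all genes. For 17 of the 35 members the log2 fold change was under 0.2 in size, as for 45.7% of all genes. Of the 10 lower ones, met-1, mes-4, mes-2, met-2, set-14, set-25 and set-29 had a larger replicate difference of at most 0.22, and set-17, set-23 and set-31 had 0.24, 0.34 and 0.79. Markers of oocytes and early embryos were lower in the same libraries, as given above, while the sums of the germ cell markers overlapped between the groups. Of the 10 germ cell markers taken singly, 4 were lower and 2 higher without overlap, beside 22.2% lower and 22.7% higher among all genes, with a median log2 fold change of -0.28. The 5 intestine markers summed to 1347 and 1304 CPM in the met-1 mes-4(RNAi) libraries, against 1665 and 1518 CPM in wild type libraries. The 5 body wall muscle markers summed to 6051 and 8133 CPM in the met-1 mes-4(RNAi) libraries, against 5321 and 6710 CPM in wild type libraries. These sums overlapped between the groups. All 5 had a positive log2 fold change, with a median of 0.14, as did 7731 of the 15008 genes tested. The groups overlapped for 4 of the 5, and 1 was higher without overlap. DESeq2 called the myosin gene myo-3 higher (log2 fold change 1.26). The 5 sperm genes summed to 2.04 and 2.18 CPM in the met-1 mes-4(RNAi) libraries, against 0.39 and 0.41 CPM in wild type libraries. Only 1 of them, spe-41, was tested, and DESeq2 called it higher (log2 fold change 2.605). The 3 vitellogenin genes of adults summed to 3.66 and 4.88 CPM in the met-1 mes-4(RNAi) libraries, against 0.48 and 0.45 CPM in wild type libraries, with vit-5 at 0. Only 1 of these, vit-6, was tested, and DESeq2 called it higher (log2 fold change 3.43). At these low wild type sums, spe-41 and vit-6 may have passed the filter on low counts only through the met-1 mes-4(RNAi) libraries. The part of these marker lists in the members' values was not tested.

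The members lay on every chromosome, 7 each on I, II, III and X, 5 on IV and 4 on V. The shares of all tested genes that stood apart differed by chromosome. On III, 4 of 7 members were lower without overlap (set-2, set-16, met-2 and set-25) and 0 were higher, against 31.7% lower and 13.6% higher among all tested genes there. On X, 3 of 6 tested members were higher without overlap (set-12, set-28 and set-30) and 0 were lower, against 28.9% higher and 12.9% lower. On I, 2 of 7 members were lower and 2 higher, against 30.8% lower and 13.4% higher. On II, 3 of 6 tested members were lower and 1 higher, against 23.4% in each direction. On IV, 1 of 5 was lower and 1 higher, against 22.4% lower and 20.4% higher. On V, 2 of 4 were lower and 0 higher, against 15.3% lower and 32.5% higher.

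Related genes had few calls. Of 59 genes in 7 lists, 54 were tested, DESeq2 called 3 lower and 0 higher, and edgeR called 0. The 3 were prmt-7, jmjd-5 and hrde-1, which make up 5.56% of the tested genes, against the 1.92% given above. The median log2 fold change of the 54 was -0.09. Groups were apart for 17 lower (31.5%) and 12 higher, against 22.2% lower and 22.7% higher among all genes tested.

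Of 7 tested non-SET histone methyltransferase genes, the arginine methyltransferase gene prmt-7 was at 43.0 and 43.3 CPM in the met-1 mes-4(RNAi) libraries, against 72.0 and 73.5 CPM in wild type libraries. The replicates were almost equal, and the log2 fold change was -0.75 (SE 0.11). Its adjusted p was 1.84e-04 by DESeq2 and 0.0797 by edgeR, and the DESeq2 call ended without any 1 of the 4 libraries. With 1 library left out, the log2 fold change by edgeR stayed between -0.78 and -0.74. The arginine methyltransferase gene prmt-5 was at 56.9 and 62.6 CPM in the met-1 mes-4(RNAi) libraries, against 71.5 and 80.7 CPM in wild type libraries, a log2 fold change of -0.35 that was not called. The DOT1-family gene dot-1.5 had 12 and 16 reads in met-1 mes-4(RNAi) libraries, against 2 and 0 reads in wild type libraries. It had no DESeq2 adjusted p and an edgeR adjusted p of 0.194. With so few wild type reads, it passed the filter on low counts only through the met-1 mes-4(RNAi) libraries. Its values therefore cannot be read as support for a rise. The genes dot-1.2 and dot-1.3 of the same list did not pass the filter.

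Of 14 tested demethylase genes, the JmjC gene jmjd-5 was at 8.57 and 11.9 CPM in the met-1 mes-4(RNAi) libraries, against 20.8 and 22.6 CPM in wild type libraries. The groups were well apart, with a log2 fold change of -1.08 (SE 0.20) and adjusted p of 0.00212 by DESeq2 and 0.112 by edgeR. The call was lost on leaving out replicate 1 of the met-1 mes-4(RNAi) group (adjusted p = 0.281 by DESeq2) or wild type replicates 1 (0.160) or 2 (0.406). The LSD1-type gene lsd-1 was at 14.1 and 13.1 CPM in the met-1 mes-4(RNAi) libraries, against 8.60 and 8.29 CPM in wild type libraries, a log2 fold change of 0.68 (SE 0.15) that passed neither test. The JmjC gene jmjd-3.3 was at 1.98 and 1.21 CPM in the met-1 mes-4(RNAi) libraries, against 0.599 and 0.255 CPM in wild type libraries. The list had a median of -0.03, from -0.08 to 0.06 with 1 library left out.

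Of 9 genes for H3K9 partners and readers, the nuclear Argonaute gene hrde-1, which guides heritable silencing in the germline, was at 27.6 and 20.2 CPM in the met-1 mes-4(RNAi) libraries, against 42.8 and 38.3 CPM in wild type libraries. Its log2 fold change was -0.76 (SE 0.19), with adjusted p of 0.0294 by DESeq2 and 0.181 by edgeR. The DESeq2 call was lost on leaving out replicate 2 of the met-1 mes-4(RNAi) group (adjusted p = 0.696) or wild type replicates 1 (0.600) or 2 (0.410). The chromodomain gene cec-3 and the MBT-repeat gene lin-61 had log2 fold changes of -0.31 each and were not called. Of the 10 COMPASS and MLL-type complex genes 0 were called by either test. The CXXC-protein gene cfp-1 was at -0.28, the core subunit gene rbbp-5 at -0.30 and the H3K27 demethylase gene utx-1 at 0.33 (log2 fold change). Each of these 3 had groups that did not overlap, among 3 lower, 3 higher and 4 overlapping genes of the list. For utx-1 the value was 0.16 without wild type replicate 1. The list had a median of -0.11, or 0.0084 without wild type replicate 2.

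Of the 8 genes for S-adenosylmethionine supply, 7 had a negative log2 fold change, against 48.5% of all genes tested. The groups overlapped for 6 of the 8, and 2 (25%) were lower without overlap, against 22.2% of all genes tested. By either test, 0 of the 8 were called. The median was -0.30, but it rested on single libraries. With replicates 1 and 2 of the met-1 mes-4(RNAi) group left out in turn it was -0.08 and -0.44, and with wild type replicates 1 and 2 left out in turn it was -0.50 and -0.07. The S-adenosylhomocysteine hydrolase gene ahcy-1 was at 1514 and 1859 CPM in the met-1 mes-4(RNAi) libraries, against 2054 and 2481 CPM in wild type libraries. The S-adenosylmethionine synthetase gene sams-1 was at 494.2 and 620.7 CPM in the met-1 mes-4(RNAi) libraries, against 654.0 and 836.5 CPM in wild type libraries. Both were apart between the groups, and in each group replicate 2 was the higher one. The folate enzyme gene mthf-1 overlapped between the groups, with a log2 fold change of -0.32 (SE 0.22). Leaving out 1 library moved it between -0.58 (replicate 2 of the met-1 mes-4(RNAi) group) and -0.09 (wild type replicate 2). For sams-1 the log2 fold change of -0.42 became -0.26 on leaving out replicate 1 of the met-1 mes-4(RNAi) group and -0.23 on leaving out wild type replicate 2. In the list on H3K36 binding and elongation, 5 of 7 symbols were tested and 0 were called by either test. The log2 fold changes were -0.23 for the FACT subunit gene spt-16, 0.25 for ama-1, the large subunit of RNA polymerase II, and 0.16 for the chromodomain gene mrg-1.

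**Figure D4:**
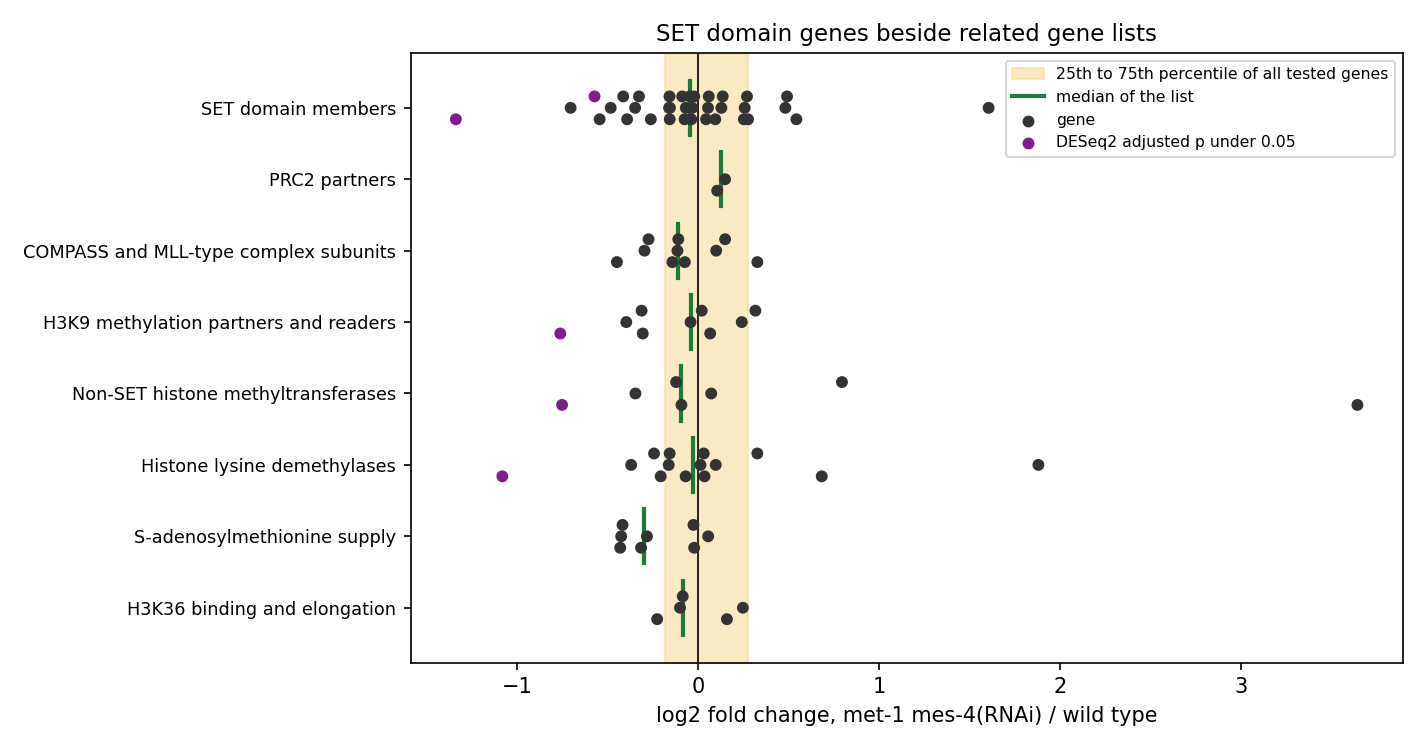
Log2 fold change, met-1 mes-4(RNAi) over wild type, of the 35 SET domain members and of 7 related lists, with 1 point a gene, the list median as a green bar and DESeq2 calls in purple. The medians lie between -0.30 for S-adenosylmethionine supply and 0.13 for the PRC2 partners, and the band is the 25th to 75th percentile of all tested genes.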

How the data were processed

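Total RNA of L1 larvae was made into libraries with the ScriptSeq Complete Gold kit, per the labels' protocols. The authors deposited raw counts per gene with gene model lengths, and normalized log2 values. The deposited log2 table fits the log2 of a scaled count plus 8, with a single scaling constant for each library, as worked out from the values. The genome build was ce10, per the submitters' processing notes. No aligner, counter, annotation or strand setting is named there (not given in the sources used here). Symbols matched 19182 identifiers; chromosomes and overlaps came from the WBcel235 annotation, so no coordinates are printed, and no sequence was used.

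Counts were filtered with filterByExpr and scaled by TMM in edgeR 4.0.16 (R 4.3.3). The main test was the quasi-likelihood F-test without a block, adjusted by Benjamini-Hochberg over 15008 genes. Standard errors were taken as the log2 fold change over the root of the F statistic. DESeq2 1.42.0 and limma 3.58.1 gave alternatives; 291 DESeq2 adjusted p were NA. Replicate differences use log2 CPM with a prior count of 2. In counts simulated for this comparison, 200 of 15008 genes were changed, all with a mean of at least 5 CPM. Libraries were drawn independently, without replicate differences shared between the groups. In that setting edgeR recovered 40% of 2-fold and 99% of 4-fold changes, and DESeq2 76% and 99%. Unchanged genes made up 8.55% and 24.6% of the calls. Members below 5 CPM and shared replicate differences are not covered by these shares. The common biological coefficient of variation was 22.1%. The members, lists, tests and the rule for named genes were chosen with earlier results of these data known. The rule named all members with a role group, called genes, the 3 largest rises and falls, and called genes plus up to 3 genes with the smallest edgeR p in each related list. Figures were drawn with matplotlib 3.10.9.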

Additional observations from a re-analysis of the deposited data

How the results depend on the processing

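All genes called by edgeR, 0 in the main test, numbered 128 without a filter, 2 when 5 CPM was required in 2 libraries, and 0 to 35 with 1 library left out (35 without met-1 mes-4(RNAi) replicate 1, 11 without wild type replicate 1). DESeq2 called 655. Leaving out replicates 1 and 2 of the met-1 mes-4(RNAi) group it called 211 and 173, and leaving out wild type replicates 1 and 2 it called 199 and 154, a choice made after seeing the data. For members, edgeR called 0 with 1 library left out, and DESeq2 2, or 0 to 1 with 1 library left out. For related genes DESeq2 called 3, or 0 to 1 with 1 library left out. Where a group had 1 library left, that library was taken to vary like the others.

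The labels do not say that replicate numbers mark a shared batch, and with 2 pairs the pairing could not be decided. Replicate differences of the groups correlated at 0.646 across genes. With the replicate block, edgeR called 3047 of all 15008 genes tested (1507 lower and 1540 higher) and 11 of the 35 members. The 8 lower members were met-1, mes-4, mes-2, met-2, set-17, set-25, set-29 and set-31, and the 3 higher ones were set-12, set-18 and set-30. Of the 54 related genes tested, edgeR with the block called 14, mthf-1 among them (adjusted p = 0.016). DESeq2 with the block called 1394 of the 15008 genes, 6 of the 35 members and 6 of the 54 related genes.

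The members' median was 0.0070 with library size only, 0.0023 in limma on the deposited log2 values, and -0.12 to 0.0079 with 1 library left out. Without met-1 and mes-4 it was 0.018, 0.017 and -0.11 to 0.018. Of 35 members, 20 kept their sign in every alternative and 11 changed it only with a library left out. With library size only, the 5 CPM filter and the deposited log2 values, lin-59 was at 0.029, 0.019 and 0.027, set-2 at 0.018, 0.0079 and 0.017, and set-21 at 0.020, 0.0067 and 0.031. With the first and last of these, set-24 was at 0.0070 and 0.0023. With 1 library left out, values ran from -0.065 to 0.0095 for lin-59, -0.12 to 0.27 for set-9, -0.17 to 0.015 for set-4, -0.041 to 0.14 for set-10, -0.0074 to 0.10 for set-15, -0.19 to 0.31 for set-19, -0.10 to 0.40 for set-20, -0.30 to 0.25 for set-21, -0.52 to 0.12 for set-22, -0.14 to 0.034 for set-24, -0.0046 to 0.24 for set-27, -0.35 to 0.020 for set-5, -0.25 to 0.047 for set-6 and -0.54 to 0.057 for blmp-1. The cause was not tested.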
